A study of Bos taurus with 86 samples.

Results

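OCIAD2 (OCIA domain containing 2) was followed through single bovine embryos that had been produced in 3 ways. Its members were the rows of the array table whose single gene symbol in the platform annotation is OCIAD2. The rule found 2 rows of 16416. Both hold the same cDNA clone, so they are repeat spots of one sequence and not independent probes. Both had a value on all 86 arrays, and their mean entered the analysis as 1 of 6278 features, a feature being a gene (the mean of the rows with its symbol) or a single row without a symbol. OCIAD2 was picked because it was high in IVD and IVF embryos against AI embryos in these same data. Its levels and its differences to AI are therefore given as a description, with no test.

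The groups were 15 IVF embryos (in vitro fertilization), 14 IVD embryos and 14 AI embryos (read as artificial insemination). The meaning of IVD is not written out anywhere in the labels, so it serves as a group name only. Breed, sex and developmental stage are not given there either. Each embryo was hybridised to 2 cDNA arrays with the dyes Cy3 and Cy5 exchanged, always against the same reference standard RNA, whose source is not named. RNA from each embryo was amplified linearly in 3 rounds and the reference RNA in 2 rounds, per the labels' protocols. The question set by the design is which transcripts differ between embryos obtained in these ways.

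OCIAD2 encodes a small membrane protein with an OCIA domain, a hydrophobic segment that it shares with its relative OCIAD1. In human cells it has been found on endosomes and mitochondria. There it has been reported to raise the activity of gamma-secretase, the protease that cuts the amyloid precursor protein and Notch, by binding the subunit nicastrin, and to take part in the activation of the transcription factor STAT3. OCIAD1 has been reported in human cells to act with prohibitins in the assembly of respiratory complex III, and the OCIAD2 promoter is a known site of DNA methylation in human tumours. No role of OCIAD2 in bovine embryos is assumed here.

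Every level below is a log2 ratio of embryo to reference RNA, with each array first centred on its own median. A level of 0 thus means that OCIAD2 stood at the same ratio as the median row of that array, and a level of -1 means 2-fold below it. The sources do not state which dye is the numerator of the deposited ratios. Embryo over reference is the likely direction, because 10 of 11 measured trophectoderm markers then lay above 0 in all 3 groups. With the other direction the sign of every level and of every difference in level would turn, and ranks by either would reverse. Correlations between genes, or between the 2 arrays of an embryo, would keep their sign.

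The groups differed technically. The rows without a value, averaged over the 2 arrays of an embryo, numbered 3076.5 to 5099.5 in IVF, 1001.5 to 1871.5 in IVD and 3613 to 5713 in AI embryos. The correlation of an embryo's 2 dye-swapped arrays across rows, after turning the sign of one, was 0.717 to 0.911 in IVF, 0.589 to 0.767 in IVD and 0.816 to 0.912 in AI. The IVD arrays thus stood apart from the others in rows without a value. Their correlations tended to be lower too, though their range overlapped that of the IVF embryos. The part of these differences in the results below was not tested. Nothing in the labels says whether the 3 groups were processed together.

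OCIAD2 RNA was scarce in AI embryos relative to the reference, intermediate in IVF embryos and closest to the reference in IVD embryos. In IVF embryos its level ran from -4.06 to -0.11 with a median of -1.91, and averaged -2.03 ± 1.23 (SD, n = 15). In IVD embryos it ran from -2.15 to 0.58 with a median of -0.44, and averaged -0.84 ± 0.95 (SD, n = 14). In AI embryos it ran from -5.38 to -2.01 with a median of -4.66, and averaged -4.24 ± 1.09 (SD, n = 14). In linear terms these means lay 4.09-fold below the array median in IVF embryos, 1.79-fold below it in IVD embryos and 18.9-fold below it in AI embryos. No spot intensities were used, so whether the signals behind such low ratios lay near background is not known. That limits these fold values and the folds against AI below. In a whole embryo, fewer cells of a type and less RNA per cell cannot be told apart.

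**Figure D1:**
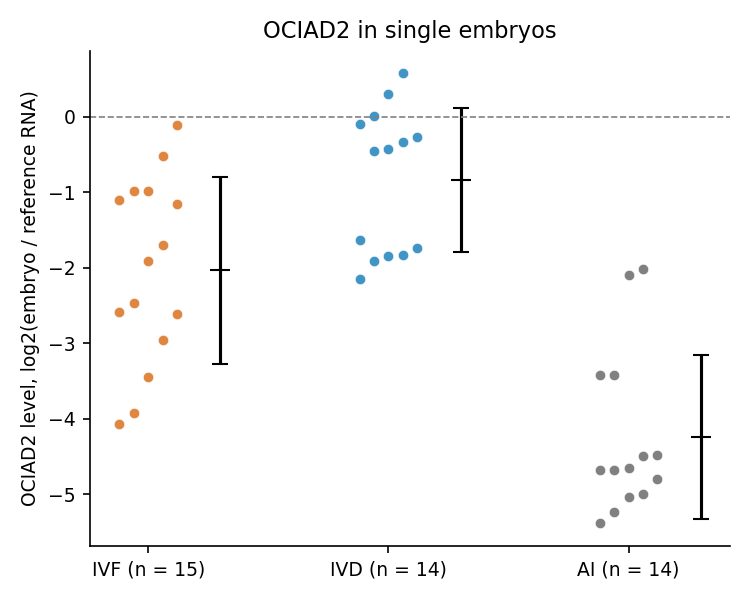
Level of OCIAD2 in each embryo, as the log2 ratio of embryo to reference RNA with arrays centred on their medians (vertical axis), for IVF, IVD and AI embryos. Each point is 1 embryo (mean of its 2 dye-swapped arrays), the horizontal mark is the group mean and the bar is ± 1 SD; 10 of 14 AI embryos lie below -4, against 1 of 15 IVF and 0 of 14 IVD embryos.

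The IVD and AI embryos hardly overlapped. The level was above the highest AI embryo in 13 of 14 IVD embryos and below the lowest IVD embryo in 12 of 14 AI embryos. IVF and AI embryos overlapped more, with 8 of 15 IVF embryos above the highest AI embryo and 10 of 14 AI embryos below the lowest IVF embryo. No IVF or IVD embryo lay below the AI median. Levels above 0 were found in 0 of 15 IVF, 3 of 14 IVD and 0 of 14 AI embryos. These counts come from the levels that chose the gene, and the share of features that separate the groups as far was not counted. By the limma test used below, 46.5% of all features differed between IVD and AI embryos and 37.7% between IVF and AI embryos.

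The difference of the group means was 2.21 ± 0.39 (log2, SE) for IVF over AI, a 4.61-fold higher level. For IVD over AI it was 3.40 ± 0.40, a 10.6-fold higher level. Among the 6278 features, 6277 had a lower IVF over AI difference and 6276 a lower IVD over AI difference, while the median over all features was 0.0406 for IVF over AI and 0.0579 for IVD over AI. These values chose the gene, and both comparisons share the AI embryos. They rest on no test here.

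The position of OCIAD2 within each embryo's own profile restates the same levels as ranks, without the log2 scale. These levels chose the gene, so the ranks are no added support. Over the 3711 features measured in every embryo, the share of features with a lower level than OCIAD2 was 0.377% to 49.8% in IVF embryos (median 6.036%). It was 6.359% to 70.0% in IVD embryos (median 34.4%) and 0.054% to 7.249% in AI embryos (median 0.323%). At the group medians, 224 features lay below OCIAD2 in IVF, 1278 in IVD and 12 in AI embryos. If the ratios run the other way, OCIAD2 stands as far from the other end, and the median share of features below it becomes 93.9% in IVF, 65.5% in IVD and 99.7% in AI embryos. In either direction most AI embryos had it near an end of the profile and the median IVD embryo inside its body. These ranks order ratios to the reference, not abundances of transcripts, since a ratio also depends on how much of each RNA the reference holds.

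Both dyes gave the levels alike. With the embryo in Cy3 the mean level was -1.90 in IVF, -0.88 in IVD and -4.15 in AI embryos. With the embryo in Cy5 the means were -2.17 in IVF, -0.80 in IVD and -4.33 in AI embryos. The order of the groups was the same in both orientations. Both orientations are parts of the levels on which OCIAD2 was picked, so this order is a description and no independent support. As a description, the correlation of the 2 orientations over embryos was 0.959 in IVF (n = 15), 0.996 in IVD (n = 14) and 0.943 in AI (n = 14), values that share the embryo's RNA and its amplification.

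**Figure D2:**
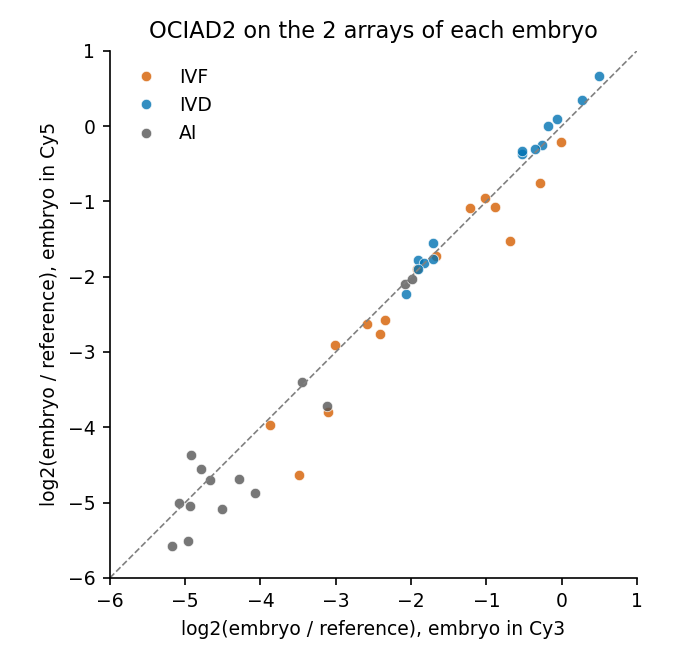
OCIAD2 level on the array with the embryo in Cy3 (horizontal axis) against the level on the array with the embryo in Cy5 (vertical axis), both as log2 ratios of embryo to reference RNA. Each point is 1 embryo, coloured by IVF, IVD or AI, and the dashed line marks equal values; IVD embryos lie within 0.205 of equality, IVF embryos within 1.15 and AI embryos within 0.794.

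The gap between the 2 orientations was largest in IVF embryos. It reached 1.15 in IVF (median 0.194), 0.205 in IVD (median 0.139) and 0.794 in AI (median 0.32). The 2 spots of the clone agreed more closely, differing by at most 0.379 in IVF, 0.117 in IVD and 0.42 in AI embryos. In each group the median gap between orientations was below the SD between embryos.

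The part of the signal that cancels when the orientations are averaged, called the dye bias here, did differ between groups. It is the mean of the 2 centred ratios before any sign is turned. It averaged -0.135 in IVF embryos, 0.0395 in IVD embryos and -0.094 in AI embryos. It was lower in IVF than in IVD embryos by a two-sided permutation test with 100000 resamples (difference -0.174, p = 0.00059, adjusted p = 0.00177 over the 3 pairs of groups). The IVD minus AI difference was 0.133 (permutation p = 0.0155, adjusted p = 0.0232), and the IVF minus AI difference of -0.0408 did not pass (permutation p = 0.561, adjusted p = 0.561). On the values as given, without centring, the dye-bias differences were -0.996 for IVF minus IVD and 0.905 for IVD minus AI, beside level differences of -1.44 and 3.65 in that setting. A difference in dye bias between IVF and IVD embryos was not confined to OCIAD2. Clustering embryos by the dye bias of the features measured in every embryo put all 14 IVD embryos in 1 cluster, with 13 AI and 2 IVF embryos. Another cluster held 11 IVF embryos and 1 AI embryo. This clustering did not part IVD from AI embryos. The share of features with such a difference was not counted. The part of the dye bias in the levels was not tested.

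Embryos of the same group differed widely in OCIAD2. The SD between IVF embryos was 1.23, against a median SD of 0.400 over the 3711 features measured in every embryo. It was 0.953 between IVD embryos, against a median of 0.324, and 1.09 between AI embryos, against a median of 0.368. By SD, OCIAD2 ranked 8 of 3711 in IVF, 54 of 3711 in IVD and 53 of 3711 in AI embryos. Few features of any group varied more from embryo to embryo.

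**Figure D3:**
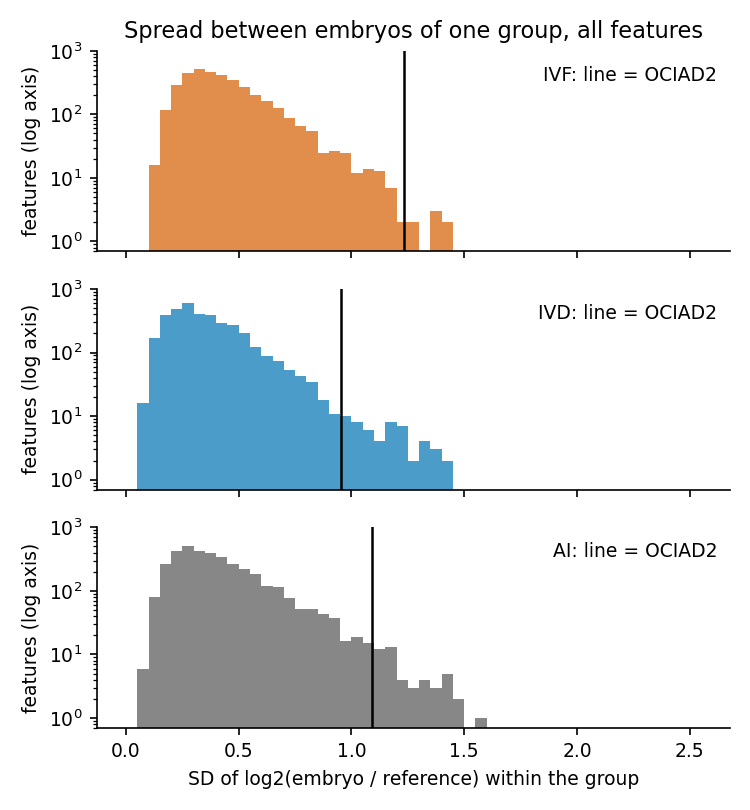
Histograms of the SD between embryos of one group for the 3711 features measured in every embryo (horizontal axis, log2 units; vertical axis, number of features on a log axis), for IVF, IVD and AI embryos from top to bottom. The vertical line is OCIAD2, at 1.23 in IVF, 0.953 in IVD and 1.09 in AI, far to the right of the bulk in each panel.

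The IVF embryos were spread evenly, while the levels in the other groups had a gap. In IVF embryos the widest gap between neighbouring levels was 0.552, which ranked 1149 of 3711 features. In IVD embryos a gap of 1.18, equal to 43.4% of the group's range, separated 6 embryos between -2.15 and -1.63 from 8 embryos between -0.45 and 0.58. In AI embryos a gap of 1.33, or 39.4% of the range, separated 12 embryos between -5.38 and -3.42 from embryos 16 and H1 at -2.09 and -2.01. These gaps ranked 54 in IVD and 51 in AI among the 3711 features, close to the ranks of OCIAD2 by SD (54 and 53). The ranks are of absolute gaps, which tend to be wide where embryos differ widely. They therefore do not show a split beyond the spread itself. The gaps are descriptions of the observed levels and were not tested.

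Both sides of the IVD gap held embryos whose labels share a number. Embryo 12_2 stood at -1.90, on the low side, and embryos 12_4, 12_1 and 12_3 stood at -0.43, -0.09 and 0.58, on the high side. Whether these 4 embryos have a common origin is not stated. The 3 AI embryos labelled with an H lay at -4.80 (H3), -4.68 (H5) and -2.01 (H1), so they too fell on both sides of their group's gap.

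No difference in spread between the groups passed the test. The mean absolute deviation from the group median was 1.03 in IVF, 0.809 in IVD and 0.733 in AI embryos. The two-sided permutation test (100000 resamples) gave p = 0.340 (adjusted p = 0.509) for IVF minus IVD, a difference of 0.223. It gave p = 0.305 (adjusted p = 0.509) for IVF minus AI, a difference of 0.300, and p = 0.794 (adjusted p = 0.794) for IVD minus AI, a difference of 0.0769. With 14 or 15 embryos a group, these values do not show that the spreads are alike.

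The IVF and IVD embryos were compared with a test, since the choice of the gene did not use that contrast itself. The choice did use the levels of both groups against AI, so the test is not fully independent of it. OCIAD2 was lower in IVF than in IVD embryos by 2.29-fold, a log2 difference of -1.19 ± 0.39 (SE; 95% interval -1.98 to -0.41). The limma test over all 6278 features, with Benjamini-Hochberg adjustment, gave an adjusted p of 0.0105. In 14 of 15 IVF embryos the level was below the IVD median, and 8 of 15 IVF embryos still fell inside the IVD range. No IVF embryo exceeded the highest IVD embryo. Of all features, 47.6% passed this test in either direction, 22.3% higher and 25.2% lower, so a call alone is common here. By size, 178 of 6278 features had a lower IVF minus IVD difference, and the median of all features was -0.00885.

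When arrays were grouped by their dye bias and the grouping was entered as a block, the IVF minus IVD difference of OCIAD2 grew to -1.68 and no longer passed (limma adjusted p = 0.0639). Only 2 of 15 IVF embryos shared a group with IVD embryos, at -4.06 and -1.69, beside 14 IVD embryos averaging -0.84 ± 0.95 (SD). The fit also uses the AI embryos, which lay in groups with IVF and with IVD embryos. With the grouping drawn by another clustering rule, chosen after seeing the data, the difference was -1.87 (limma adjusted p = 0.0189). There only 1 of 15 IVF embryos shared a group with IVD embryos. That value therefore leans on differences to AI within groups, the kind of difference that chose the gene, and is no independent support.

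Within the same dye-bias groups the levels against AI can be read as well. In the group that held all IVD embryos, the IVD mean of -0.84 stood beside 13 AI embryos averaging -4.21 ± 1.13 (SD). In the group that held most IVF embryos, 11 of them averaged -2.13 ± 1.12 (SD), beside AI embryo 17 at -4.65. The other clustering rule placed 13 IVF embryos, averaging -2.21 ± 1.19 (SD), with 9 AI embryos averaging -3.92 ± 1.14 (SD). These are subsets of the levels on which OCIAD2 was picked, and 1 of these means stands beside a single AI embryo.

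In AI embryos the OCIAD2 level went with the number of rows without a value. Spearman's rho was 0.807 (permutation p = 0.001, adjusted p = 0.006 over 6 relations) and Pearson's r was 0.660 (permutation p = 0.00973, adjusted p = 0.0584; n = 14). Without the 2 embryos farthest from the median number of missing rows, r was 0.656. AI embryos with fewer measured rows thus had OCIAD2 levels nearer to 0. The same relation gave r = -0.048 in IVF embryos (permutation p = 0.865, adjusted p = 0.865, n = 15) and r = -0.211 in IVD embryos (permutation p = 0.474, adjusted p = 0.710, n = 14). The 3 relations with the agreement of the dye-swapped arrays had adjusted p values of 0.278 or more by permutation. What the relation within AI embryos adds to the group differences was not tested.

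OCIAD1, the relative of OCIAD2 and its direct neighbour in the order of genes in the RefSeq annotation, lay in much the same range in all 3 groups. It was measured by 1 clone. Its level ran from -1.99 to -1.01 (median -1.57) in IVF embryos, from -2.10 to -0.72 (median -1.27) in IVD embryos and from -2.17 to -0.67 (median -1.49) in AI embryos. No group stood apart. The mean was -1.55 ± 0.295 in IVF (SD, n = 15), -1.30 ± 0.444 in IVD (SD, n = 14) and -1.49 ± 0.407 in AI embryos (SD, n = 14).

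None of the OCIAD1 differences passed the test. IVF minus IVD was -0.25 ± 0.14 (SE; limma adjusted p = 0.148), with a 95% interval of -0.54 to 0.04. IVF minus AI was -0.06 ± 0.14 (limma adjusted p = 0.751; interval -0.35 to 0.22), and IVD minus AI was 0.19 ± 0.14 (limma adjusted p = 0.30; interval -0.11 to 0.48). The intervals leave room for differences of up to 0.54 in size. The OCIAD2 differences to AI, 2.21 for IVF and 3.40 for IVD, chose that gene, so setting them beside OCIAD1 is no test. For IVF minus IVD, which did not choose it, the OCIAD2 interval of -1.98 to -0.41 overlapped that of OCIAD1. After group means were taken away, the correlation of OCIAD1 with OCIAD2 over 43 embryos was -0.152, given as a description.

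FRYL, a large protein related to the Drosophila furry protein and encoded 2 positions away in that order, was the other measured gene among the 10 nearest in the annotation. Its level ran from -0.59 to 1.72 (median 0.93) in IVF embryos, from -0.34 to 2.49 (median 1.01) in IVD embryos and from -1.48 to 1.56 (median -0.28) in AI embryos. The groups overlapped over most of their range. FRYL was higher in IVF than in AI embryos by 0.86 ± 0.28 (SE; limma adjusted p = 0.0141) and in IVD than in AI embryos by 1.00 ± 0.28 (limma adjusted p = 0.00362). IVF minus IVD was -0.15 ± 0.28 (limma adjusted p = 0.69). Of all features, 37.7% passed for IVF against AI and 46.5% for IVD against AI. The IVD call was lost with the embryo in Cy5 only, at 0.75 (limma adjusted p = 0.0525), and with the second dye-bias grouping as a block, at 0.70 (limma adjusted p = 0.134). With the first grouping as a block the IVF minus AI difference moved to 1.47. With a block on embryo numbers neither call against AI passed, and the values stand in the closing section.

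**Figure D4:**
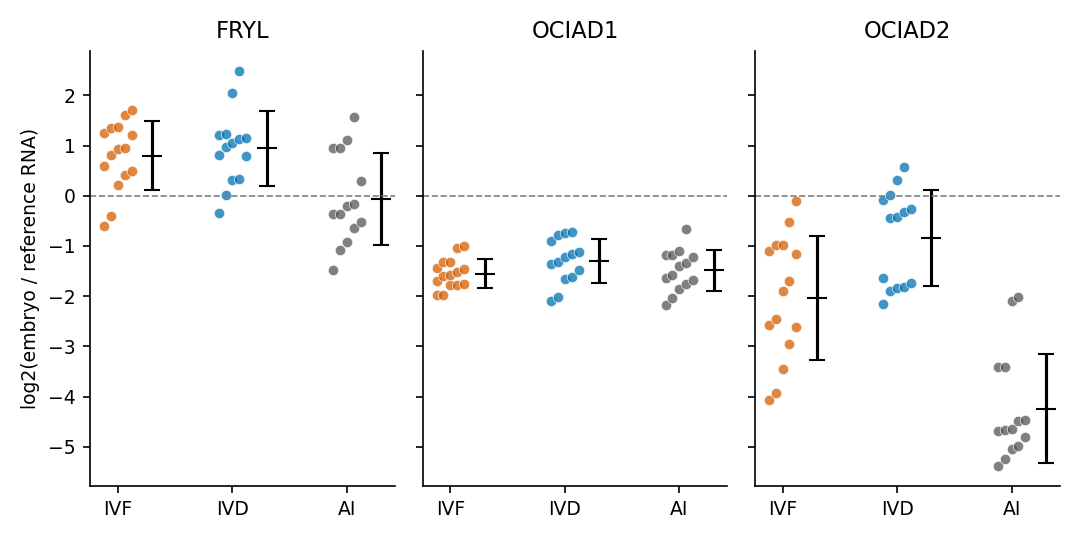
Levels of FRYL, OCIAD1 and OCIAD2 (panels from left to right, in their order along the chromosome) as log2 ratios of embryo to reference RNA, for IVF, IVD and AI embryos. Points are embryos, horizontal marks are group means and bars are ± 1 SD; OCIAD1 stays between -2.17 and -0.67 in every embryo, while OCIAD2 spans -5.38 to 0.58.

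Genes tied to the human background given above, for OCIAD2, its places in the cell or its relative OCIAD1, were read from lists. Their counts stand beside the share of all features called in each direction. For IVF over AI, 19.9% of features were higher and 17.7% lower, for IVD over AI 25.5% were higher and 21% lower, and for IVF over IVD 22.3% were higher and 25.2% lower. The lists hold 1 to 12 measured genes each, so the shares are coarse, and nothing particular to a list is read from them.

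Of the gamma-secretase and amyloid precursor list, 5 genes were measured, and nicastrin was not among them. Against AI embryos, 2 were higher and 1 lower in IVF (median of the list -0.15), and 1 was higher and 1 lower in IVD (median -0.15). ADAM17, a protease that sheds the outer part of membrane proteins, was higher in IVD than in AI by 0.64 ± 0.15 (SE; limma adjusted p = 0.000446). TMED10, a cargo receptor of the secretory pathway that binds gamma-secretase, was higher in IVF than in AI by 0.71 ± 0.12 (limma adjusted p = 7.1e-06). PSENEN, the only subunit of the protease that was measured, was lower in IVF than in AI, at -0.24 ± 0.09 (limma adjusted p = 0.0426), and in IVD than in AI, at -0.27 ± 0.10 (limma adjusted p = 0.0169). Its rows, of different clones, ran from -0.48 to 0.02 for IVF minus AI, and on the values as given both calls were lost, with limma adjusted p of 0.272 for IVF and 0.931 for IVD. The IVF call was lost under 6 of 15 settings and in 19 of 43 fits that left out 1 embryo, with limma adjusted p of up to 0.0744 in these fits.

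STAT3 itself was lower in IVF and IVD embryos than in AI embryos. It averaged -0.56 in IVF, 0.04 in IVD and 0.82 in AI embryos. This is not the reverse of the order found for OCIAD2, which was highest in IVD embryos. After group means were taken away, the correlation of STAT3 with OCIAD2 over embryos was 0.082, given as a description. STAT3 was lower in IVF than in AI by 1.39 on the log2 scale (difference -1.39 ± 0.19, SE; limma adjusted p = 3.03e-07). The IVD minus AI difference was -0.78 ± 0.19 (limma adjusted p = 0.000943). IVF minus IVD was -0.60 ± 0.19 (limma adjusted p = 0.00768), a call that was lost with dye-bias groups as a block, at -0.42 (limma adjusted p = 0.401).

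Of the 5 measured genes of STAT3 signalling, 1 was higher and 1 lower in IVF than in AI (median of the list -0.11), and 1 was higher and 2 lower in IVD than in AI (median -0.48). MCL1, an inhibitor of apoptosis and a STAT3 target in human cells, was higher in IVD than in AI by 0.66 ± 0.13 (SE; limma adjusted p = 3.51e-05). PIAS3, an inhibitor of STAT3, was lower in IVD than in AI, at -0.77 ± 0.22 (limma adjusted p = 0.00365). That call was lost on the values as given, at -0.52 (limma adjusted p = 0.0874).

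Of 7 measured genes of respiratory complex III and its assembly, 0 were higher and 5 lower in IVF than in AI (median of the list -0.46). In IVD against AI, 1 was higher and 4 lower (median -0.49). UQCRQ, a small subunit of the complex, was lower by 1.03 on the log2 scale in IVF (difference -1.03 ± 0.12, SE; limma adjusted p = 2.48e-08). In IVD its difference was -1.11 ± 0.13 (limma adjusted p = 1.56e-09). UQCRC1, a core subunit, differed by -1.11 ± 0.10 in IVD against AI (limma adjusted p = 3.64e-12) and by 0.79 ± 0.10 in IVF against IVD (limma adjusted p = 7.56e-09), though its rows, of different clones, ran from 0.04 to 1.34 in the second of these comparisons.

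Of 7 measured genes of the prohibitin and inner membrane list, 0 were higher and 2 lower in IVF than in AI (median 0.05), and 1 was higher and 5 lower in IVD than in AI (median -0.49). PHB1, a prohibitin, differed by -0.55 ± 0.12 in IVD against AI (SE; limma adjusted p = 0.000322). Its IVF minus IVD difference was 0.77 ± 0.12 (limma adjusted p = 1.05e-06). The IVD minus AI call was lost on the values as given, at -0.29 (limma adjusted p = 0.168). SAMM50, which inserts proteins into the outer mitochondrial membrane, was lower than in AI in both groups, at -0.97 ± 0.14 in IVF (limma adjusted p = 9.59e-07) and -1.06 ± 0.14 in IVD (limma adjusted p = 8.99e-08).

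The endosome and lysosome list held 12 measured genes. Against AI, 0 were higher and 3 lower in IVF (median 0.10), and 3 were higher and 2 lower in IVD (median 0.13). RAB11A, a GTPase of recycling endosomes, was higher in IVD than in AI by 1.03 ± 0.11 (SE; limma adjusted p = 3.66e-10). It was lower in IVF than in IVD, at -1.12 ± 0.11 (limma adjusted p = 1.82e-11), and its IVF minus AI difference was -0.09 ± 0.11 (limma adjusted p = 0.539). Of the DNA methylation list, 2 genes were on the array and 0 had enough values to be tested.

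Markers of cell types were set beside the OCIAD2 levels, and their part in the differences was not tested. Of 11 measured trophectoderm markers, 0 were higher and 4 lower in IVF than in AI, 3 were higher and 5 lower in IVD than in AI, and 3 were higher and 5 lower in IVF than in IVD. The embryo medians of this list ran from 1.49 to 2.59 in IVF, 1.11 to 3.16 in IVD and 1.85 to 2.97 in AI embryos, so the groups overlapped. KLF4, the only marker measured of the inner cell mass, averaged 1.36 in IVF, 2.43 in IVD and 1.82 in AI embryos. It was lower in IVF than in IVD, at -1.07 ± 0.18 (SE; limma adjusted p = 3.26e-06). This call was lost with dye-bias groups as a block, at -0.75 (limma adjusted p = 0.0661).

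Markers of cells that could cling to an embryo were few. The embryo medians of 2 cumulus and granulosa markers ran from -0.75 to 0.07 in IVF, -0.38 to 0.41 in IVD and -0.99 to 0.48 in AI embryos. CD14 for blood cells ran from -1.51 to 0.74 in IVF, -0.59 to 0.00 in IVD and -0.70 to 0.10 in AI, and MSX1 for the oviduct and endometrium from -0.92 to 0.60 in IVF, -0.57 to 0.51 in IVD and -0.48 to 0.61 in AI. All of these ranges overlapped between the groups. CYP19A1, a granulosa marker, was still higher in IVF than in AI by 0.28 ± 0.085 (SE; limma adjusted p = 0.00881). It was higher in IVF than in IVD by 0.21 ± 0.085 (limma adjusted p = 0.0346). The first call was lost under 4 of 15 settings and the second under 8. TNFAIP6, the other marker of that list, was measured in 29 of 43 embryos. No difference of TNFAIP6, CD14 or MSX1 passed. No gene of the hypoblast or oocyte lists had enough values to be tested.

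Genes whose levels ran most like OCIAD2 from embryo to embryo were sought among 2344 named genes with a value in every embryo, after group means were taken away. The correlations over 43 embryos are descriptions, and embryos share amplification and array quality. Only 1 gene exceeded 0.5 and only 1 fell below -0.5. The highest were BUD23 at 0.542, a methyltransferase of ribosomal RNA, CSRP2 at 0.482, a LIM domain protein of the cytoskeleton, and BRAF at 0.480, a kinase of the MAPK pathway. ARHGAP29 (0.476), MAPK6 (0.476), STEEP1 (0.470), EIF4A2 (0.468) and RANBP3 (0.466) followed. The lowest were LOC782525 at -0.511, GALNT11 at -0.496, KIAA2013 at -0.486 and PSMC1 at -0.480. Over the ways of processing the data, the value came down to 0.183 for CSRP2, 0.282 for BUD23, 0.256 for STEEP1 and 0.264 for RANBP3. It came as near to 0 as -0.238 for LOC782525 and -0.317 for PSMC1.

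BUD23 was the gene of this set whose correlation with OCIAD2 was most alike in the 3 groups, at 0.534 in IVF, 0.595 in IVD and 0.533 in AI embryos. Its own level was less variable between groups than that of OCIAD2. It averaged 0.33 in IVF, 0.63 in IVD and 0.25 in AI embryos, and the IVF minus IVD difference was -0.31 ± 0.07 (SE; limma adjusted p = 0.000404).

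Over all embryos, with group means left in, the likeness is set largely by the groups, on which OCIAD2 was picked. The highest correlations over the 43 embryos were then those of P2RX4 (0.761), RTN4 (0.759), AKR7L (0.758), PLCE1 (0.755), SLC31A2 (0.743), BUD23 (0.733), NAB2 (0.718) and LAMB1 (0.714). RTN4, a membrane protein that shapes the endoplasmic reticulum, averaged -1.62 in IVF, -1.06 in IVD and -2.16 in AI embryos, the order found for OCIAD2. The lowest were ALAD (-0.811), RPS14 (-0.781), LOC782525 (-0.778) and DYRK3 (-0.777). ALAD, an enzyme of haem synthesis, averaged 0.57 in IVF, -0.24 in IVD and 1.56 in AI embryos, the reverse order. For AKR7L the value fell to 0.297 with the embryo in Cy3 only, and for LOC782525 it came as near to 0 as -0.448 over the ways of processing the data.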

How the data were processed

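Single bovine embryos were measured on 2-colour cDNA arrays. The authors deposited a log2 ratio per spot and array. The log base was read from a shared ceiling of 16.61, the log2 of a 100000-fold ratio. The sources used here do not give the image analysis or normalization, and 20.1% of the table's cells were empty or without a number. No spot intensities were used here, so the number of arrays limits the precision.

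From every array the median of its 5558 rows that have a value on all arrays was subtracted (these medians ran from -2.257 to 1.05). The sign was turned on arrays that had the embryo in Cy3, and the 2 arrays of an embryo were averaged. Rows with both arrays in at least 7 embryos of each group were kept (10757), and rows of 1 symbol were averaged, which gave 6278 features, 3433 of them named. Symbols came from the platform annotation (11196 rows with 1 symbol, 190 with several, 5030 not listed) and gene order from RefSeq assembly ARS-UCD2.0, for which no coordinates are printed.

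limma 3.58.1 in R 4.3.3 (lmFit, eBayes) was fitted to all groups together, with Benjamini-Hochberg adjustment over all features and a threshold of 0.05, and was tested on simulated data. Single values used permutation tests. Embryos are numbered within their group in the labels, and p-values measure the spread between these embryos. The genes named were OCIAD2, its neighbours, the 8 highest and 4 lowest correlations, and up to 4 called members of a list per comparison. The gene, the lists and the tests were chosen with earlier results of these data known. Alternatives changed the centring, the dyes, the row filter, blocks and embryos. Clone sequences were not used here.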

Additional observations from a re-analysis of the deposited data

How the results depend on the processing

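The IVF minus IVD difference of OCIAD2 kept its sign under all 16 other settings, from -1.87 to -0.975, and without each embryo in turn, from -1.33 to -1.05 with limma adjusted p of 0.0041 to 0.0224. It missed the threshold under 2 settings: with the replicate block on embryo numbers, at -0.975 (limma adjusted p = 0.0750), and with dye-bias groups as a block, at -1.68 (limma adjusted p = 0.0639). After group means were taken away, the correlation of same-numbered embryos ran from -0.187 to 0.213 over 21 pairs, and 3 pairs exceeded 0.1. Differently numbered pairs were not set beside them, so these values cannot settle whether the numbers pair embryos. With the replicate block FRYL was 0.66 for IVF minus AI (limma adjusted p = 0.0586) and 0.68 for IVD minus AI (limma adjusted p = 0.0619). The differences to AI, given without a test, ran from 1.74 to 2.90 for IVF and from 3.17 to 3.88 for IVD. Features passing for IVF against IVD numbered 2986, against 1880 among rows measured in every embryo, where fewer were tested, 1291 with dye-bias groups as a block and 1613 with the second clustering rule as a block. On the values as given the calls split into 465 higher and 2198 lower, against 1403 higher and 1583 lower after centring, and the median over all features moved to -0.27. The difference in spread between IVD and AI turned sign with the embryo in Cy3 only (-0.000607, permutation adjusted p = 0.998). The dye bias of IVD minus AI missed the threshold in the second row alone (0.124, permutation adjusted p = 0.0606) and reached 0.905 on the values as given, where IVF minus IVD was -0.996. CYP19A1, at 0.21 for IVF minus IVD (limma adjusted p = 0.0346), was at -0.0321 on the values as given (limma adjusted p = 0.878). The causes were not tested. Scaling profiles to a common SD and the second clustering rule were chosen after seeing the data.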
